A study of Mus musculus with 3 samples.

Results

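The 10 genes described here are the Notch receptors *Notch1*, *Notch2*, *Notch3* and *Notch4*, the ligands *Jag1*, *Jag2*, *Dll1* and *Dll4*, and the target genes *Hes1* and *Hey1*. They were taken as those genes whose symbols the RefSeq accessions of the array probes led to, and all 10 were found, by 11 probes, among 22911 genes named on the array. Their mRNA levels were compared between Colon26, a colon adenocarcinoma line of the mouse, and its sublines LuM1, which metastasizes rapidly, and NM11, which metastasizes slowly. The lines are labelled as female and of the BALB/c strain, and all were grown in the same serum-containing medium with antibiotics, with no treatment named. Total RNA of cells grown for 3 days was hybridized to 1 single-colour array per line, and the 3 arrays shared 1 slide and 1 scan. With 1 array per line, no difference below has a replicate check, no test was possible, and each value describes these RNA samples.

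Notch receptors sit in the plasma membrane and are activated by Jagged and Delta-like ligands on a neighbouring cell. Binding lets ADAM proteases and then γ-secretase cut the receptor, and the freed intracellular domain moves to the nucleus, where it joins RBPJ and Mastermind proteins at target genes such as *Hes1* and *Hey1*. In the intestine, the pathway is known for keeping progenitor cells undifferentiated and for holding back secretory cells.

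The values are scaled signals, that is, the background-corrected brightness of a probe after the arrays were brought to 1 common 75th percentile (576.6). The error after ± is that of the scanner software, close to 10.0% of a bright signal plus a small constant, and covers technical error only. A log2 ratio is called beyond this error where it lies outside the 95% range that the combined error of both arrays leaves around 0. Between 49.9% (Colon26) and 53.8% (LuM1) of all probes were well above background by the software's flag. A probe without this flag has no measured level on the array, and its ratio is a bound, written as "at least". The bound uses the dimmest flagged signal of the array in its place (26.7 in Colon26, 20.0 in LuM1, 19.5 in NM11), or the probe's own signal where that is higher. A gene is called higher or lower from 2-fold on. Signals of different probes are not compared, since brightness depends on the probe.

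The Colon26 array held neighbourhoods crowded with spots that were well above background on that array alone, 8.03% of its spots in all. Around the spots of *Jag1*, *Hey1* and *Notch4*, such spots made up 8.50%, 6.55% and 6.40%, against 1.89% over the whole array. The 511 crowded spots that were bright on the Colon26 array alone had a median scaled signal of 137 and a 90th percentile of 533, in the range of the Colon26 signals of *Notch4* (210) and *Jag1* (116). Ratios of these genes over Colon26 are therefore given with the ratio of LuM1 over NM11, which uses neither of those spots, and the part of the crowding in them was not tested. Markers of the labelled cell type were incomplete, with 3 of 8 epithelial genes well above background in Colon26, 4 in LuM1 and 3 in NM11, and E-cadherin (*Cdh1*), *Krt18*, *Vil1* and *Muc2* on no array. The summed signal of the epithelial list was 1166 in Colon26, 441 in LuM1 and 384 in NM11. The keratin *Krt20* (658, 54.2 and 157 in that order) and *Cdx2* (447, 230 and 167) were highest in Colon26. *Krt8* (29.2, 107 and 37.0) was highest in LuM1, and *Epcam* (27.8) was well above background in LuM1 alone. Such a sum adds probes of unlike brightness, some of them not well above background, so the brightest probes set it. Of 8 endothelial genes, *Pecam1* alone was well above background, and the summed signal of the list was 92.9 in Colon26, 90.2 in LuM1 and 113 in NM11. Of 6 immune genes, 3 were well above background in Colon26, 4 in LuM1 and 3 in NM11, with summed signals of 5911, 12565 and 5116. *Ptprc* and *Adgre1*, which define leukocytes and macrophages, were well above background on no array.

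All 4 receptors were well above background in all 3 lines, and the lines differed in the level of *Notch4* and in which ligands were well above background. *Notch4*, *Jag2* and *Dll1* were higher in LuM1 cells than in either of the other lines, and *Jag1* was lower. *Jag1* and *Hey1* were higher in NM11 cells than in either of the other lines, and *Notch4* was lower there. *Dll1* and *Hes1* were lower in Colon26 cells than in either subline. *Notch1*, *Notch2* and *Notch3* stayed within 2-fold in every comparison, and *Dll4* was well above background on no array. In cultures of this kind, a lower level can come from fewer cells that express a gene or from less RNA per cell, and the arrays cannot tell these apart.

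**Figure D1:**
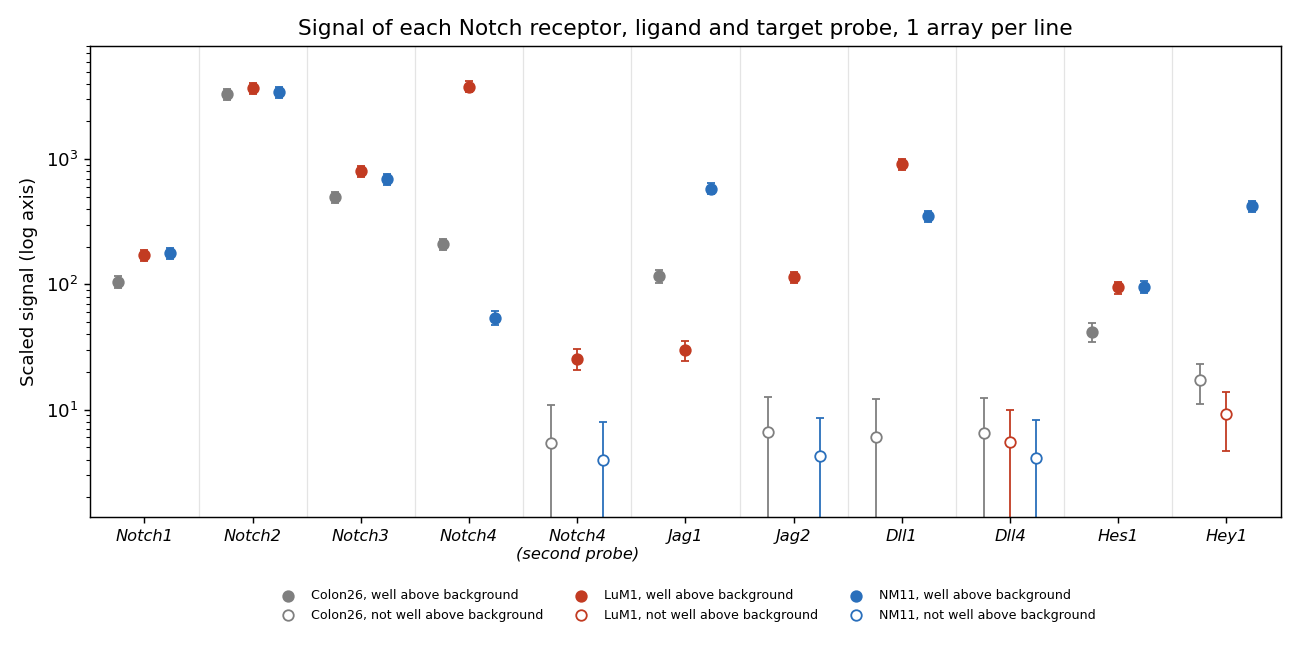
Scaled signal (log axis) of each of the 11 probes on the Colon26, LuM1 and NM11 arrays, with the scanner error as bars that run off the axis where they reach 0. Filled points are well above background and open points are not, and signals can be compared within a probe but not between probes. *Notch4*, *Jag2* and *Dll1* are highest in LuM1 cells, *Jag1* and *Hey1* in NM11 cells, and the points of *Notch2* lie together.

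Of the 10 genes, 8 were well above background in LuM1, Colon26 or both, 8 in NM11, Colon26 or both, and 9 in LuM1, NM11 or both. Counted over the 10 genes, 4 exceeded their Colon26 level by 2-fold or more in LuM1 cells (*Notch4*, *Jag2*, *Dll1* and *Hes1*) and 1 was lower (*Jag1*). Over all named genes with this flag on 1 or both of the arrays (well above background), 12.6% were higher and 12.2% were lower. Between NM11 and Colon26, 4 of the 10 were higher (*Jag1*, *Dll1*, *Hes1* and *Hey1*) and 1 was lower (*Notch4*), against 8.00% and 7.94% of all such genes. Between LuM1 and NM11, 3 were higher (*Notch4*, *Jag2* and *Dll1*) and 2 were lower (*Jag1* and *Hey1*), against 11.0% and 8.60%. Against both other lines together, LuM1 cells had 3 of the 10 higher and 1 lower, where 7.19% and 4.13% of the 14828 genes well above background on any array were. These 10 genes were chosen with results of the arrays already known, so the counts describe them and are no evidence about the pathway. The comparisons with Colon26 share its array, and those with LuM1 or NM11 share theirs.

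Among the receptors, *Notch1*, the best studied receptor of the intestinal epithelium, was read by probe A_55_P2171897 at 105 ± 11.9 in Colon26, 171 ± 17.7 in LuM1 and 178 ± 18.2 in NM11 cells. Both sublines lay above Colon26, by 1.64-fold in LuM1 and 1.70-fold in NM11 cells, beyond the scanner error but under 2-fold. The sublines did not differ beyond the error (log2 ratio of LuM1 over NM11 -0.05 with an error of 0.21), and this ratio changed sign without scaling, with scaling to the housekeeping gene *Hprt* and in the authors' processed values, which are the scanner signals times 1 constant per array.

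*Notch2*, a receptor also expressed in intestinal crypts, had scaled signals of 3317 ± 332 in Colon26, 3684 ± 368 in LuM1 and 3424 ± 342 in NM11 cells (probe A_52_P289213). No pair of lines differed beyond the scanner error, with log2 ratios of 0.15 for LuM1 over Colon26, 0.05 for NM11 over Colon26 and 0.11 for LuM1 over NM11. *Notch3*, known best from vascular smooth muscle, had signals of 499 ± 50.3 in Colon26, 798 ± 80.0 in LuM1 and 688 ± 69.0 in NM11 cells (probe A_55_P2856510). Its ratio over Colon26 was 1.60-fold in LuM1 cells and 1.38-fold in NM11 cells, both beyond the scanner error, although scaling to *Hprt* brought the second log2 ratio from 0.46 to -0.01. LuM1 and NM11 did not differ beyond the error for *Notch3* (log2 0.21 with an error of 0.20).

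*Notch4*, a receptor known chiefly from endothelial cells, had the largest measured ratio of the 10 genes. Its brighter probe (A_55_P2807493) gave 210 ± 21.9 in Colon26, 3785 ± 379 in LuM1 and 54.3 ± 6.96 in NM11 cells, well above background on all 3 arrays. LuM1 cells exceeded Colon26 cells by 18.0-fold (log2 4.17 with an error of 0.21) and NM11 cells by 69.8-fold (log2 6.12 with an error of 0.23). Of 12848 genes measured in both sublines, 11 had a ratio of LuM1 over NM11 at least as high, *Notch4* included. In NM11 cells the level was 3.87-fold lower than in Colon26 cells (log2 -1.95 with an error of 0.24), and normexp background correction, a model-based method run with an offset of 50 added to every signal, made this log2 ratio -1.09. Over NM11, the ratio of LuM1 was 4.86 on the log2 scale under normexp. The other probe of the gene (A_55_P2740966) was dim, with 5.44 ± 5.45 in Colon26, 25.5 ± 4.87 in LuM1 and 3.95 ± 3.96 in NM11 cells, and was well above background in LuM1 cells alone. It gave no ratio over Colon26 and a bound of at least 1.31-fold over NM11. Both probes were thus brightest in LuM1 cells, but a bound this low cannot show whether they agree in size. The mean over both gave a log2 ratio over NM11 of 3.26, which takes in that bound and so does not measure a smaller ratio. *Cdh5*, *Kdr*, *Tek*, *Tie1*, *Vwf*, *Erg* and *Emcn*, the endothelial genes of the marker list other than *Pecam1*, were well above background in none of the lines.

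The promoter of *Notch4* is shown because of this ratio between the sublines. The sequence is the 250 bases before the start of transcription in RefSeq (GRCm38.p6, chr17:34564045-34564294, plus strand), 5′ to 3′, with CG dinucleotides in capitals.
Notch4: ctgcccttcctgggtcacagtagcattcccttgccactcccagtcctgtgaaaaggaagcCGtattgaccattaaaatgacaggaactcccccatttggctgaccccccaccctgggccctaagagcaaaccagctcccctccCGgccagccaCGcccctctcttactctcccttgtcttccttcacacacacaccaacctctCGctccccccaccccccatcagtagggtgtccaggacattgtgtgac
It held 4 CG dinucleotides, between the lower quartile (2) and the median (6) of 32851 promoters in RefSeq.

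The ligands differed in kind between the lines. *Jag1*, a Jagged ligand, was read by probe A_52_P634090 at 116 ± 13.1 in Colon26, 30.1 ± 5.53 in LuM1 and 581 ± 58.2 in NM11 cells. NM11 was highest, Colon26 intermediate and LuM1 lowest, and each step was beyond the scanner error. The level in LuM1 cells was 19.3-fold lower than that in NM11 cells (log2 -4.27 with an error of 0.30), and 30 of 12848 genes were at least as low in this comparison. Over Colon26 the log2 ratio was 2.32 in NM11 cells (error 0.22) and -1.95 in LuM1 cells (error 0.31). Under normexp, the ratio of LuM1 over Colon26 was -0.93 and no longer 2-fold, and that over NM11 was -2.81.

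*Jag2*, the other Jagged ligand, was well above background in LuM1 cells alone. Its probe (A_51_P451338) gave 114 ± 12.3 in LuM1, 6.61 ± 6.01 in Colon26 and 4.26 ± 4.27 in NM11 cells. LuM1 cells exceeded Colon26 cells by at least 4.29-fold and NM11 cells by at least 5.87-fold, and no ratio could be given between Colon26 and NM11. Under normexp these bounds were lower, 1.09 and 1.15 on the log2 scale against 2.10 and 2.55.

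*Dll1*, a Delta-like ligand of intestinal crypts, was read by probe A_51_P306017 at 912 ± 91.4 in LuM1 and 350 ± 35.3 in NM11 cells, and it was not well above background in Colon26 cells (6.10 ± 6.11). Relative to Colon26, the level was at least 34.2-fold higher in LuM1 and at least 13.1-fold higher in NM11 cells. LuM1 exceeded NM11 by 2.61-fold (log2 1.38 with an error of 0.20). The spots around *Dll1* on the Colon26 array were not crowded, with 0.593% bright on that array alone. Under normexp the bounds over Colon26 were 3.40 for LuM1 and 2.27 for NM11 on the log2 scale, against 5.10 and 3.71.

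*Dll4*, a Delta-like ligand known from sprouting blood vessels and crypts, had signals of 6.48 ± 5.82 in Colon26, 5.55 ± 4.40 in LuM1 and 4.14 ± 4.17 in NM11 cells (probe A_51_P384402). It was well above background on none of the arrays, so it had no ratio. Of the 4 ligands, 1 was thus well above background in Colon26 cells (*Jag1*), 3 in LuM1 cells (*Jag1*, *Jag2* and *Dll1*) and 2 in NM11 cells (*Jag1* and *Dll1*).

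The promoters of the 3 ligands with a measured level are shown for comparison, in the same way and again with CG in capitals. That of *Jag1* lies at chr2:137116521-137116770, that of *Jag2* at chr12:112929496-112929745 and that of *Dll1* at chr17:15375824-15376073, all on the minus strand of GRCm38.p6.
Jag1: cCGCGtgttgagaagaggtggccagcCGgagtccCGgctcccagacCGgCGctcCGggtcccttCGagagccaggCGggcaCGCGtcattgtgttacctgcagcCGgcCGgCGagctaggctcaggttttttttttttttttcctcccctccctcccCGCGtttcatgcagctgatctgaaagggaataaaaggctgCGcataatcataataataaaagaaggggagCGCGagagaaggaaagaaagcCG
Jag2: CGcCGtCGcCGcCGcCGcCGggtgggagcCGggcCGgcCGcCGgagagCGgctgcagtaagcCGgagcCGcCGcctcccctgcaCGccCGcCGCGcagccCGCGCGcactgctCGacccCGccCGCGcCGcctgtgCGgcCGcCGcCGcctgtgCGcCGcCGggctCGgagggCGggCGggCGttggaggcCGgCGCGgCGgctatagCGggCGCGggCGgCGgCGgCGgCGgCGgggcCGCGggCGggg
Dll1: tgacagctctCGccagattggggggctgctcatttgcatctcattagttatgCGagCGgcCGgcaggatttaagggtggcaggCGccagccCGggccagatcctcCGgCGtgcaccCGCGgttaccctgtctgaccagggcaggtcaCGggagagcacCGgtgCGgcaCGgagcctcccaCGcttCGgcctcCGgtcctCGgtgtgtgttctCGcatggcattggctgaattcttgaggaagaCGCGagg
*Jag2* held 54 CG dinucleotides, a number that 0.0152% of RefSeq promoters reach, and 87.2% of its bases were G or C against a median of 52.4%. *Dll1* held 21 and *Jag1* held 20, above the upper quartile (16). A window at a further start site listed for *Dll1* (chr17:15376933-15377182) held 13. The GC box GGGCGG, searched on both strands, occurred 5 times in *Jag2* and in 32.7% of all promoters. It was not particular to *Jag2*, with 5 matches in *Notch1*, 5 in *Notch2*, 4 in *Notch3* and 2 in *Dll4*. The CCAAT box occurred 2 times in *Dll1*, 1 time in *Dll4* and in 33.8% of all promoters. The letters TGGGAA, the core bound by RBPJ, were in none of the windows of the 8 genes with an entry and in 21.6% of all promoters. The target genes *Hes1* and *Hey1* had no entry, so their promoters were not searched. These matches describe the letters of the windows, and the arrays did not measure binding or methylation there.

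**Figure D2:**
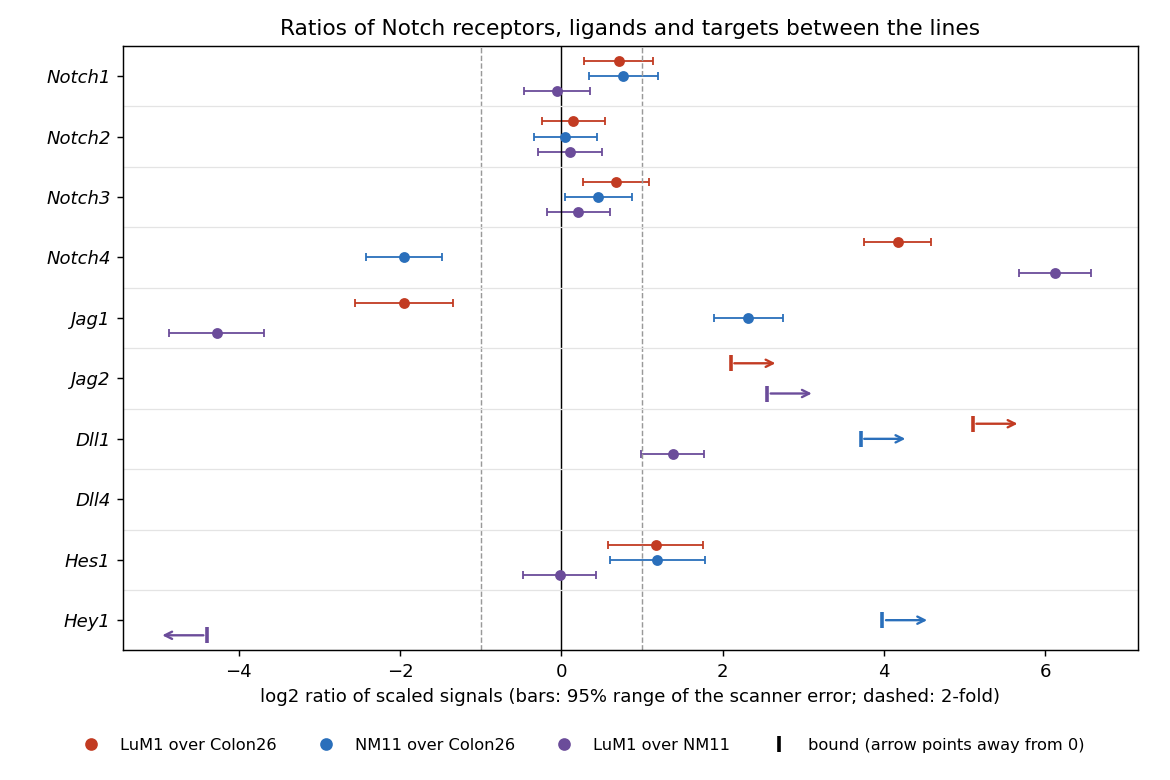
Log2 ratios of scaled signals for the 10 genes in the 3 comparisons, with bars for the 95% range of the scanner error, bounds as arrows and dashed lines at 2-fold. *Notch4* and *Jag1* lie on opposite sides of 0 in LuM1 over Colon26 and NM11 over Colon26, the bars of *Notch2* all cross 0, and *Dll4* has no point because it was well above background on no array.

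Both target genes encode basic helix-loop-helix repressors. *Hes1* was read by probe A_55_P2046245 at 42.0 ± 7.31 in Colon26, 94.7 ± 10.5 in LuM1 and 95.9 ± 10.5 in NM11 cells. Both sublines lay above Colon26, by 2.26-fold in LuM1 and 2.28-fold in NM11 cells (log2 1.17 and 1.19, each with an error of 0.30). These ratios fell short of 2-fold under normexp (0.47 and 0.50), as did that of NM11 with scaling to *Hprt* (0.72). The sublines did not differ beyond the scanner error in *Hes1* (log2 ratio of LuM1 over NM11 -0.02), and the sign of that ratio turned without scaling, with scaling to *Hprt* and in the authors' processed values.

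*Hey1* was well above background in NM11 cells alone. Its probe (A_51_P258409) gave 420 ± 42.2 in NM11, 17.1 ± 6.03 in Colon26 and 9.26 ± 4.54 in LuM1 cells. NM11 cells exceeded Colon26 cells by at least 15.8-fold, and LuM1 cells lay at least 21.0-fold below NM11 cells. Colon26 and LuM1 had no ratio, since neither was well above background. *Hey1* and *Jag1* were the 2 genes of the 10 whose level was at least 2-fold higher in NM11 than in either of the other lines, a pattern shown by 2.56% of all 14828 genes. With normexp, the bounds of *Hey1* were 2.46 for NM11 over Colon26 and -2.73 for LuM1 over NM11 on the log2 scale, against 3.98 and -4.39.

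The rest of the pathway was read from a list of 66 genes with a named probe. Of these, 55 were well above background in Colon26, 54 in LuM1 and 53 in NM11 cells, and 9 on no array. For LuM1 over Colon26, 56 list genes were well above background on 1 or both arrays, and 5 of them were called higher and 4 lower. Over all named genes with such a signal, the shares were 12.6% and 12.2%. For NM11 over Colon26, 1 of 56 list genes was called higher and 3 lower, against 8.00% and 7.94% of all such genes. For LuM1 over NM11, 8 of 55 list genes were called higher and 2 lower, against 11.0% and 8.60%. The median log2 ratio of the genes measured in both lines was 0.01 for LuM1 over Colon26, -0.09 for NM11 over Colon26 and 0.05 for LuM1 over NM11, where the medians over all named genes were -0.15, -0.04 and -0.11. These counts follow the scaling, since the authors' processed values gave 16 higher and 2 lower for LuM1 over Colon26 and 15 higher and 1 lower for LuM1 over NM11. Scaling to *Hprt* gave 8 higher and 4 lower, 1 higher and 8 lower, and 18 higher and 1 lower in the comparisons of LuM1 with Colon26, NM11 with Colon26 and LuM1 with NM11. Without scaling, 8 were higher and 4 lower for LuM1 over Colon26.

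Among other target genes, *Nrarp* was highest in LuM1 and lowest in NM11 cells. It encodes an inhibitor of the Notch transcription complex and is itself induced by Notch. Its scaled signal was 89.1 ± 10.8 in Colon26, 334 ± 33.7 in LuM1 and 21.3 ± 4.80 in NM11 cells, where it was not well above background. LuM1 exceeded Colon26 by 3.75-fold and NM11 by at least 15.7-fold, and NM11 lay at least 4.18-fold below Colon26, a call that was lost under normexp. *Gata3*, a transcription factor that Notch activates in T cells, had signals of 349 ± 35.4 in Colon26, 1653 ± 165 in LuM1 and 586 ± 58.8 in NM11 cells. LuM1 was 4.73-fold above Colon26 and 2.82-fold above NM11. *Myc*, a growth regulator with Notch-dependent enhancers in T cells, had signals of 6015 ± 602 in Colon26, 2637 ± 264 in LuM1 and 5194 ± 519 in NM11 cells, with LuM1 2.28-fold below Colon26, which fell short of 2-fold in the authors' processed values and under quantile normalization.

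Of the 7 other *Hes* and *Hey* genes, 3 were well above background on no array (*Hes3*, *Hes5* and *Heyl*). *Hes6*, whose product counteracts HES1, had signals of 303 ± 30.9 in Colon26, 1556 ± 156 in LuM1 and 492 ± 49.4 in NM11 cells. LuM1 was 5.13-fold above Colon26 and 3.16-fold above NM11. *Hey2*, a close relative of *Hey1*, reached this flag in Colon26 cells only (84.0 ± 10.4), with 4.66 ± 4.67 in LuM1 and 4.42 ± 4.43 in NM11 cells, which put LuM1 at least 4.20-fold and NM11 at least 4.31-fold lower. Its spot on the Colon26 array also lay among crowded spots (6.07%), and the call for NM11 was lost under normexp. *Dlk2*, a Delta-like membrane protein that can inhibit Notch, had a signal of 204 ± 21.0 in LuM1 cells, 2.43-fold below Colon26 (496) and 2.28-fold below NM11 (465 ± 46.8). The authors' processed values ended both calls, and normexp and scaling to *Hprt* ended the one over NM11.

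**Figure D3:**
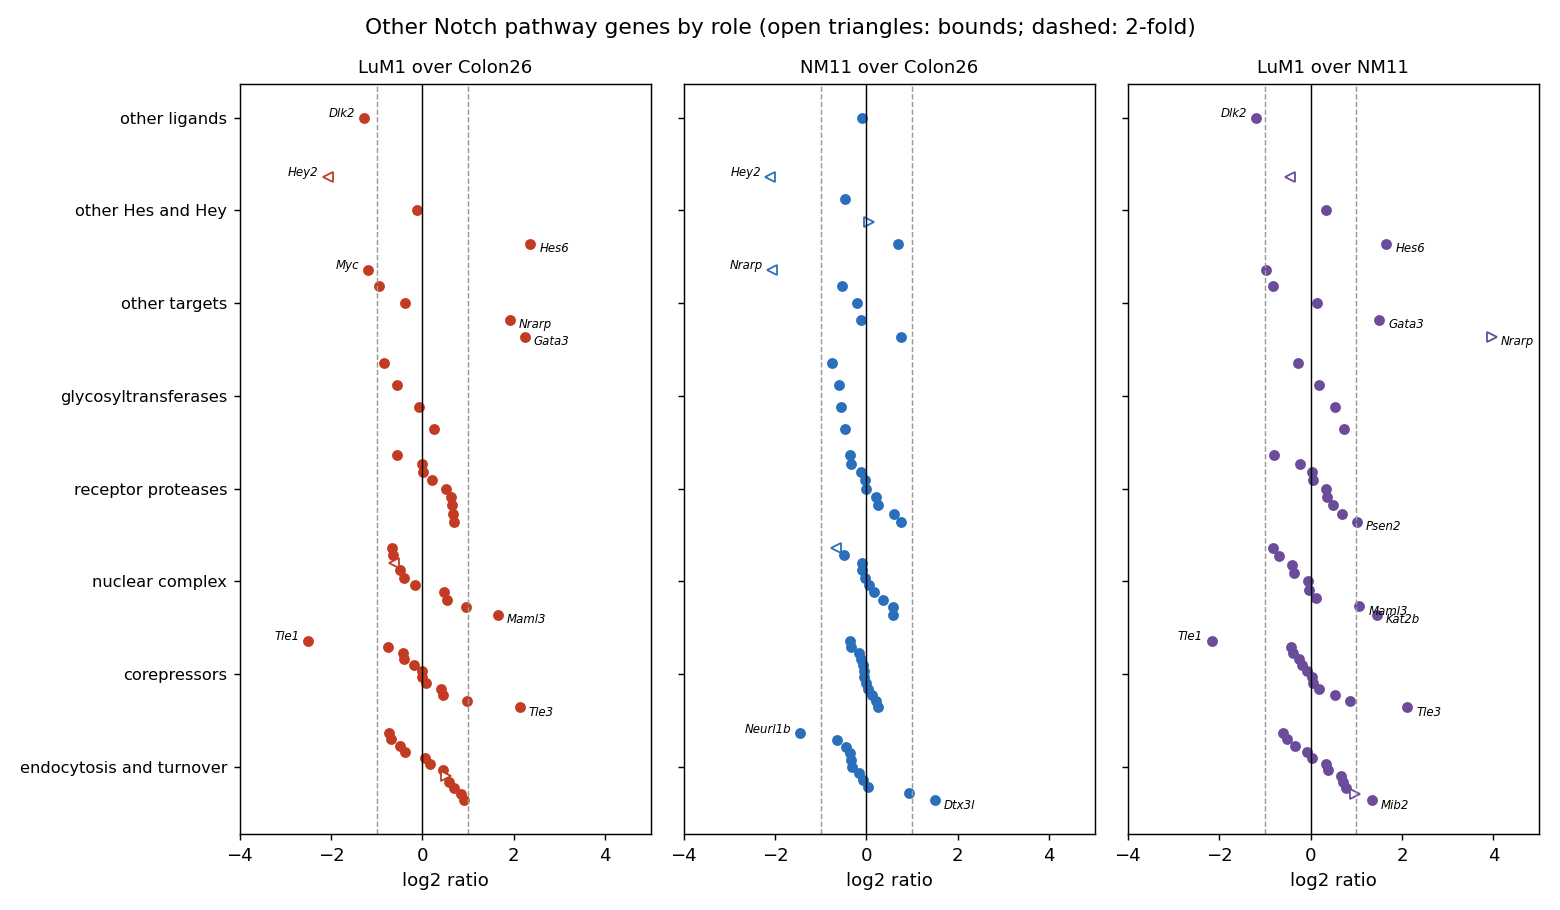
Log2 ratios of the other Notch pathway genes in the 3 comparisons, grouped by role, with measured ratios as filled points, bounds as open triangles and dashed lines at 2-fold. Genes past 2-fold are named, most receptor proteases and corepressors lie between the dashed lines, and *Tle1* and *Tle3* stand on opposite sides in LuM1 cells.

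By their brightest probes, the enzymes that modify and cut the receptor were within 2-fold between the lines, apart from *Psen2*. Among the fringe glycosyltransferases, which set the preference of Notch for Jagged or Delta-like ligands, *Lfng* had signals of 43.1 ± 7.57 in Colon26, 51.5 ± 6.94 in LuM1 and 30.9 ± 5.36 in NM11 cells. *Rfng* had signals of 3871 ± 387, 2177 ± 218 and 2629 ± 263 in the same order, and *Mfng* was well above background on no array. Neither of the measured fringe genes reached 2-fold. *Adam10*, the protease that makes the first cut after ligand binding, had signals of 1468 ± 147 in Colon26, 2320 ± 232 in LuM1 and 2238 ± 224 in NM11 cells, log2 ratios over Colon26 of 0.66 and 0.61. The 2 probes of *Adam17* disagreed over Colon26, with log2 ratios of 0.63 for LuM1 and -0.04 for NM11 by the brighter probe and of -0.58 and -1.26, the latter past 2-fold, by A_55_P2612184, while both gave 0.68 for LuM1 over NM11. *Ncstn*, a subunit of γ-secretase, had log2 ratios of 0.22 and -0.13 over Colon26. On the Colon26 array the spot of *Lfng* (11.7%) and both spots of *Adam17* (6.92% and 16.5%) lay among crowded spots. Of the 9 protease genes read, 1 passed 2-fold by its brightest probe, in LuM1 over NM11 alone. It was *Psen2*, a catalytic subunit of γ-secretase, at 2.01-fold, where its other probe gave 1.41-fold, and the call was lost with the mean over both probes and under normexp.

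In the nucleus, *Rbpj*, which encodes the DNA-binding partner of Notch, had signals of 19342 ± 1934 in Colon26, 17303 ± 1730 in LuM1 and 18070 ± 1807 in NM11 cells and did not differ beyond the scanner error between any pair of lines. *Maml1*, a Mastermind coactivator, had log2 ratios of -0.65 for LuM1 over Colon26, 0.05 for NM11 over Colon26 and -0.70 for LuM1 over NM11. *Maml3*, of the same family, had signals of 151 ± 16.3 in Colon26, 475 ± 47.7 in LuM1 and 227 ± 23.1 in NM11 cells, with LuM1 3.14-fold above Colon26 and 2.09-fold above NM11, the latter call being lost under normexp and quantile normalization. *Kat2b*, a histone acetyltransferase of the complex, was 2.73-fold higher in LuM1 (237 ± 24.1) than in NM11 cells (86.8 ± 9.57), with 122 ± 13.5 in Colon26 cells, and this call was lost under normexp.

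Of 12 corepressor genes, 10 lay within 2-fold in each comparison with LuM1, and the Groucho-type corepressors *Tle1* and *Tle3*, which HES proteins recruit, did not. *Tle1* had signals of 5968 ± 597 in Colon26, 1056 ± 106 in LuM1 and 4724 ± 472 in NM11 cells, 5.65-fold and 4.47-fold lower in LuM1. *Tle3* had signals of 1434 ± 143, 6262 ± 626 and 1438 ± 144 in the same order, 4.37-fold and 4.35-fold higher in LuM1. Each of the other probes of both genes was past 2-fold in the same direction in both comparisons with LuM1. Between NM11 and Colon26 the 3 probes of *Tle1* disagreed, with log2 ratios of -0.34 for the brightest probe, -0.34 for A_52_P328044 and -1.18 for A_52_P330694, the last of which was beyond the scanner error, and neither probe of *Tle3* was beyond it. Among genes of endocytosis and turnover, *Dtx3l*, which encodes a ubiquitin ligase, was 2.84-fold higher in NM11 (852 ± 85.3) than in Colon26 cells (300 ± 30.6), with 562 ± 56.4 in LuM1 cells. *Neurl1b*, a ubiquitin ligase that acts on Notch ligands, was 2.74-fold lower in NM11 (719 ± 72.0) than in Colon26 cells (1969 ± 197), with 1178 ± 118 in LuM1 cells. *Mib2*, another ligase of Notch ligands, was 2.53-fold higher in LuM1 than in NM11 cells, and its NM11 spot lay among spots bright on that array alone (6.65%), so the call was lost without crowded spots.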

How the data were processed

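Gene expression was measured in Colon26, LuM1 and NM11 cells with 1 array per line, from 0.1 µg of total RNA. The authors deposited the intensity of each spot as Agilent Feature Extraction 11.5.1.1 (per the labels) wrote it, background-corrected and on a linear scale, with flags of 0 or 1 for outliers, saturation and detection. Their processed values, also deposited as intensity, are those intensities multiplied by a constant, 0.654 on the Colon26, 0.829 on the LuM1 and 0.706 on the NM11 array, and the normalization is not given in the sources used here.

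Control spots and outlier spots (74 to 137 per array) were left out, repeated spots of a probe were averaged, and each array was scaled so that the 75th percentile of its spots (567.1, 619.8 and 545.3 for Colon26, LuM1 and NM11) became their geometric mean. No spot was saturated. RefSeq accessions of GRCm38.p6 gave names to 32994 of 56605 probes (58.3%), and a gene was read by its probe of highest mean log2 signal. A spot was called crowded where spots well above background on its array alone made up over 3 times the share of the whole array within 33 rows and 11 columns. With 1 array per line, the number of arrays limits the precision, and no test was run. Promoters were taken from RefSeq, which had an entry for 8 of the 10 genes, all but *Hes1* and *Hey1*.

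The genes, the pathway list and the markers were chosen with earlier results of these arrays known. All 10 genes are described with every probe. From the pathway list, up to 5 genes per direction and comparison with the largest ratios past 2-fold were named, with a fixed set of core components, and *Psen2* and *Mib2* were named after their values were seen. Alternative settings left the arrays unscaled or scaled them to the median of detected probes or to *Hprt*. Others were quantile normalization, normexp correction with an offset of 50 on median brightness, the authors' processed values, a looser detection flag, no filter on dim probes and averaging a gene's probes. Leaving out crowded spots was added after seeing the data. The calls were checked on simulated data in which only bright probes changed, by more than 2-fold. That check does not show how changes in dim probes, bounds or ratios near 2-fold are called. The normexp step used limma 3.58.1 in R 4.3.3, and all else used Python 3.11.15 (numpy 2.4.6, pandas 2.3.3, matplotlib 3.10.9).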

Additional observations from a re-analysis of the deposited data

Results flagged for a closer look

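*Notch4* and *Jag1* went opposite ways in the sublines, each relative to the same Colon26 array. The log2 ratio of *Notch4* was 4.17 in LuM1 and -1.95 in NM11 cells, and that of *Jag1* was -1.95 in LuM1 and 2.32 in NM11 cells. With 1 array per line, the difference between the sublines was not tested. Both Colon26 spots lay among crowded spots, and the ratios of LuM1 over NM11, 6.12 for *Notch4* and -4.27 for *Jag1*, do not use them.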

How the results depend on the processing

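No ratio of the 10 genes past 2-fold changed sign under any alternative run. Of 245 values of their ratios under the alternatives, 190 moved by no more than their scanner error and 55 moved further. The 190 include values that could not move, so the count does not measure stability. A looser flag or no filter cannot change a ratio measured on both arrays, and averaging probes could change only *Notch4*. The 190 also include bounds, such as that of *Dll1* for NM11 over Colon26, 2.27 under normexp against 3.71. With normexp, no gene of the 10 was lower in LuM1 than in Colon26 (0 against 1), because *Jag1* fell short of 2-fold, and *Hes1* was no longer higher in either subline. Without crowded spots, 0 were lower in LuM1 than in Colon26, 2 were higher and 0 lower in NM11 than in Colon26, and the ratios of *Notch4*, *Jag1* and *Hey1* over Colon26 could not be given, while those of LuM1 over NM11 kept their values. The authors' processed values added *Notch1* (1.18) and *Notch3* (1.15) to the genes higher in LuM1 than in Colon26. For the pathway list, LuM1 over Colon26 had 5 genes higher against 8 without scaling, 8 with scaling to *Hprt* and 16 in the authors' values, and 4 lower against 2 in the authors' values. NM11 over Colon26 had 3 lower against 8 with *Hprt*, 1 with normexp, 5 with the looser flag and 5 without a filter. LuM1 over NM11 had 8 higher against 18 with *Hprt*, 5 with normexp and 15 in the authors' values, and 2 lower against 1 under each of these. The scalings moved the median log2 ratio of measured probes, in the order LuM1 over Colon26, NM11 over Colon26 and LuM1 over NM11, by 0.12, -0.47 and 0.59 for *Hprt*, by 0.47, 0.05 and 0.42 for the authors' values, and by 0.13, -0.06 and 0.18 without scaling. Beyond these shifts, the cause was not tested. Naming by gene symbol was not run, since the scanner files used here hold accessions and no symbols. No paired analysis was possible because each line has 1 array and the labels carry no replicate numbers. Only bounds could be given below 19.5 to 26.7, the dimmest signals well above background, which limits *Jag2*, *Dll1*, *Dll4* and *Hey1*.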
